A study of Mus musculus with 11 samples.

Results

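Hepatic glycolysis and its control were followed through 8 genes: Gckr, Gpi1, Pfkl, Pfkfb1, Pfkfb3, Khk, Pklr and Ldha. They were chosen by function, with earlier results of these data known. All 8 were found among the 36788 genes of the table, and all 8 passed the filter that left 12733 genes for testing (an average of 0.5 or more reads per 1000000 reads, CPM). The livers came from female mice older than 12 weeks, labeled as wild-type C57BL/6 (the study's methods describe its mice as of a mixed background that is only in part C57BL/6J), which had been ovariectomized (OVX) and fed a high-fat diet (HFD). Strain label, sex, age class, surgery and diet were thus shared by every animal, and the groups differed by the injection. FSH-treated mice (FSH, n = 5, numbered 1, 2, 3, 4 and 6) received follicle-stimulating hormone at 30 IU/kg each day, and control mice (saline, n = 6) received saline. Each library was bulk RNA from 1 liver, so a lower value can stand for fewer cells of a type or for less RNA per cell, and these cannot be told apart. The hormone was given systemically, so any organ with the receptor could respond to it.

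In hepatocytes, glucose is trapped as hexose phosphate, and Gckr encodes a regulatory protein that holds this entry step back and is itself set by sugar phosphates. The trapped hexose phosphate is isomerized by Gpi1, committed to glycolysis by phosphofructokinase (liver subunit Pfkl) under the control of the bifunctional enzymes Pfkfb1 and Pfkfb3, and turned into pyruvate by the liver pyruvate kinase Pklr. Ketohexokinase (Khk) feeds fructose in below the phosphofructokinase step, and lactate dehydrogenase A (Ldha) interconverts pyruvate and lactate.

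The livers held 11410596 to 19909327 reads per library with FSH and 10801891 to 16077442 with saline. The 6 hepatocyte markers summed to 99572 to 117200 CPM with FSH and 96382 to 120715 CPM with saline, and 0 of 6 passed the test. Markers of pancreatic acini, fat and skeletal muscle were at or near 0 (at most 0.525 CPM summed over a list). All 6 Kupffer cell markers had a lower mean with FSH, 0 of 6 passed the test, and their sums ran from 93.3 to 257 CPM with FSH against 153 to 303 CPM with saline. The 5 stellate cell markers likewise all had a lower mean with FSH, 0 of 5 passed the test, and their sums ran from 201.0 to 297.9 CPM with FSH against 237.0 to 336.1 CPM with saline. The part of these cells in the values given here was not tested.

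Of the 8 genes, Gckr rose and Ldha fell with FSH at an adjusted p under 0.05, and 0 of 8 passed the study's pair of thresholds, which also asks for an absolute log2 fold change over 1. The 1 gene that rose is to be read against 6.19% of all tested genes that were called higher, and the 1 gene that fell against 4.41% called lower (10.6% in either direction). The background for both thresholds together was 1.83%. The groups did not overlap for 2 of the 8 genes (Gckr and Ldha), as for 6.67% of all tested genes. The median log2 fold change of the 8 genes was 0.01, beside 0.02 over all tested genes, with 5 values above and 3 below 0. Fold changes are on the log2(CPM + 0.5) scale, with FSH minus saline, and adjusted p-values are from limma over all 12733 genes. An exact permutation test over the 462 ways to split the livers stands beside them, and the smallest p it can give is 0.00216.

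**Figure D1:**
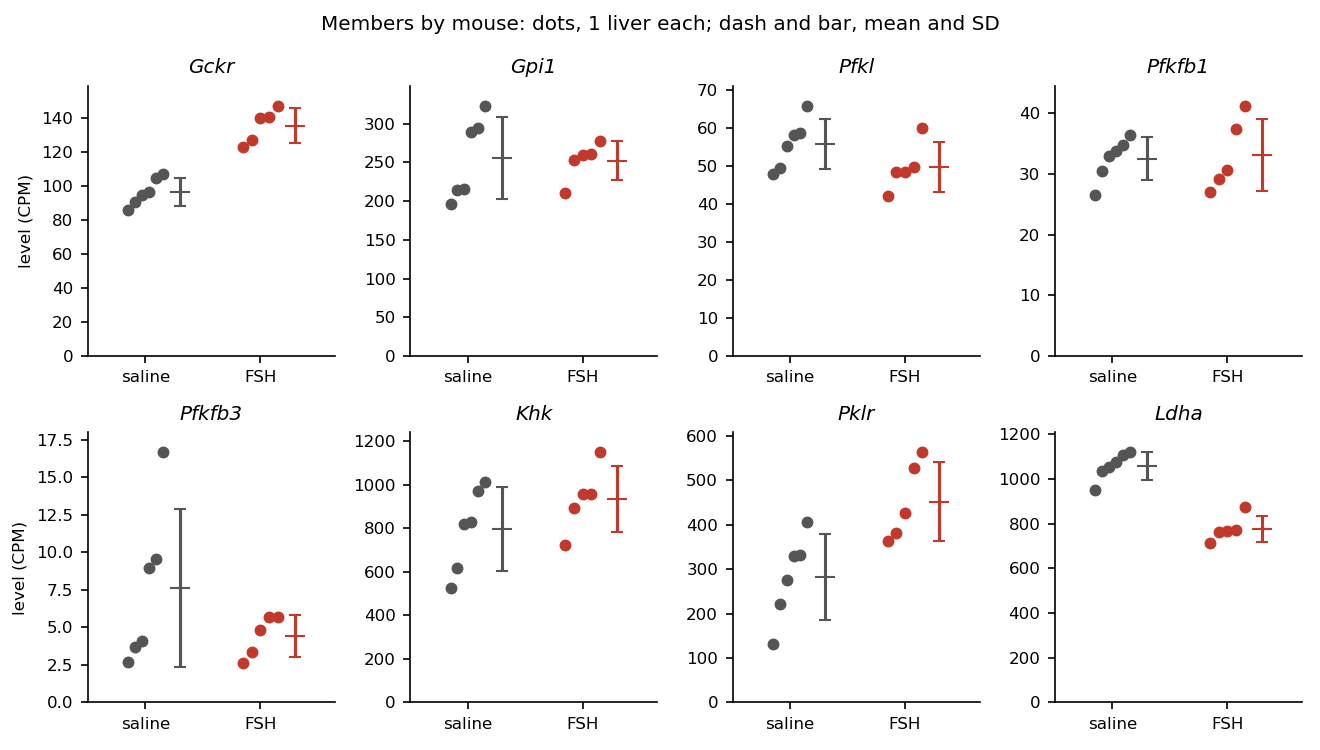
Level of each gene in CPM (vertical axis, linear from 0) in the 6 saline livers and the 5 FSH livers. Dots are single livers, and the dash with its bar gives the mean and SD. Gckr and Ldha separate the groups without overlap, and the other 6 genes overlap.

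Gckr was higher in every FSH-treated liver than in every control liver. Its level was 140.2, 122.6, 146.9, 140.1 and 127.2 CPM in FSH mice 1, 2, 3, 4 and 6. The saline livers ranged from 85.8 to 106.8 CPM, with a median of 95.2. The lowest FSH liver (mouse 2) thus lay above the highest saline liver (mouse 4). The FSH mean was 135.4 ± 10.1 CPM (SD, n = 5), the saline mean was 96.3 ± 8.03 CPM (SD, n = 6), and their ratio was 1.41. The log2 fold change was 0.49 (SE 0.08, limma adjusted p = 0.00166, exact permutation p = 0.00216, two-sided), which was called under each of 24 alternative settings.

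The hexokinase genes of most other cell types did not pass the limma test. The log2 fold change was −0.18 for Hk1 (adjusted p = 0.637), −0.04 for Hk2 (adjusted p = 0.943) and −0.54 for Hk3 (adjusted p = 0.154).

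The isomerase and the phosphofructokinase step showed no called change. Gpi1 ran from 210.0 to 278.3 CPM with FSH and from 196.9 to 323.0 CPM with saline, and its log2 fold change was 0.00 with a 95% interval of −0.28 to 0.28 (limma adjusted p = 1.00). A change of either sign within that interval cannot be told from none here. Pfkl, which measured 42.0 to 60.0 CPM with FSH and 47.8 to 65.7 CPM with saline, had a log2 fold change of −0.17 (SE 0.10, adjusted p = 0.354), which was −0.11 without FSH mouse 2 and −0.24 without FSH mouse 6. The muscle subunit gene Pfkm had a value of 0.31 (SE 0.12, adjusted p = 0.117) and the platelet subunit gene Pfkp one of −0.09 (SE 0.16, adjusted p = 0.792). Pfkl supplied 56.2 to 64.4% of the summed phosphofructokinase level per kilobase in the FSH livers and 63.3 to 74.8% in the saline livers, which overlap.

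The bifunctional enzymes set the fructose bisphosphate signal that activates phosphofructokinase. Pfkfb1, the liver form, held 27.0 to 41.2 CPM with FSH and 26.5 to 36.4 CPM with saline, for a log2 fold change of 0.02 (SE 0.12, adjusted p = 0.950). Pfkfb3, the inducible form with high kinase activity, measured 2.61, 4.79, 3.34, 5.68 and 5.70 CPM in FSH mice 1, 2, 3, 4 and 6 and 2.68 to 16.7 CPM with a median of 6.54 in the saline livers. Saline mice 1, 2 and 4 exceeded every FSH liver, and the other 3 saline livers lay within the FSH range. The coefficient of variation was 69.4% within the saline group, the widest of the 8 genes, and the log2 fold change of −0.52 (SE 0.37) had an adjusted p of 0.422 by limma. The value was −0.25 without saline mouse 2, −0.84 with edgeR and −0.82 with DESeq2 on the recovered reads, and was not called under any of the 24 alternatives. Pfkfb2 (log2 fold change −0.39, adjusted p = 0.0962), the heart form, and Pfkfb4 (0.19, adjusted p = 0.587), the testis form, did not pass either.

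Khk, the first enzyme of fructose use, had the highest level of the 8 genes per kilobase. It measured 722.7 to 1148 CPM with FSH and 525.6 to 1011 CPM with saline. The log2 fold change was 0.26 (SE 0.17, 95% interval −0.10 to 0.61, limma adjusted p = 0.372), and 1 FSH liver lay above every saline liver. Without saline mouse 5, which had the lowest Khk, the value was 0.14. The triokinase gene Tkfc, further down the fructose route, did not pass the test either, with a log2 fold change of 0.23 (adjusted p = 0.447). The level of Khk was 5.23 to 6.08 times that of Tkfc per kilobase within the FSH livers and 4.27 to 9.53 times within the saline livers.

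Pklr was higher on average with FSH but missed the threshold. Its level was 527.4, 381.4, 562.2, 426.3 and 362.0 CPM in FSH mice 1, 2, 3, 4 and 6. The saline livers ran from 131.3 CPM (mouse 4) to 406.6 CPM (mouse 2), with a median of 302.3. Every FSH liver lay above 5 of the 6 saline livers, and saline mouse 2 lay above FSH mice 2 and 6. The means were 451.9 ± 88.9 CPM (SD, n = 5) and 282.7 ± 96.4 CPM (SD, n = 6), a ratio of 1.60. The log2 fold change was 0.74 (SE 0.23, 95% interval 0.25 to 1.23) with an adjusted p of 0.0536 by limma, and the exact permutation test of this gene alone gave p = 0.0173 (two-sided). The call was made under 4 of 24 alternatives: with array weights (0.72, adjusted p = 0.0275), with DESeq2 on the recovered reads (0.66, adjusted p = 0.0228), without FSH mouse 6 (0.81, adjusted p = 0.0477) and without saline mouse 2 (0.86, adjusted p = 0.0253). In the other direction, the value was 0.54 without saline mouse 4 (adjusted p = 0.0537), and the adjusted p was 0.135 without FSH mouse 1 and 0.134 without FSH mouse 3. The other pyruvate kinase gene, Pkm, which is the form of most other tissues, stood at −0.05 on that scale (adjusted p = 0.841). Pklr exceeded Pkm 24.2 to 46.9 times per kilobase within the FSH livers and 10.3 to 34.8 times within the saline livers, with overlap.

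Ldha was lower in every FSH-treated liver than in every control liver. It measured 764.5, 872.0, 770.6, 713.2 and 763.1 CPM in FSH mice 1, 2, 3, 4 and 6. The saline livers ran from 949.4 to 1118 CPM with a median of 1065. The highest FSH liver (mouse 2) lay below the lowest saline liver (mouse 5). The FSH mean was 776.7 ± 58.1 CPM (SD, n = 5) and the saline mean, 1057 ± 61.0 CPM (SD, n = 6), was 1.36 times as high. The log2 fold change was −0.45 (SE 0.08, limma adjusted p = 0.0026, exact permutation p = 0.00216, two-sided), and the call was made under each of the 24 alternatives. Ldhb, which encodes the heart-type subunit, was 0.03 on the same scale (SE 0.16, adjusted p = 0.928). Ldha still exceeded Ldhb 93.5 to 187 times per kilobase in the FSH livers and 165 to 286 times in the saline livers. The lowest ratio was that of FSH mouse 4, whose Ldhb was high, and the other 4 FSH livers ran from 160 to 187. Ldha has processed pseudogene copies, and its level is uncertain to the extent that reads were shared with them; the processing notes name RSEM, which can split such reads, but the deposited values resolve to whole reads.

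The regulatory sequence next to Gckr and Ldha, which were called, and Pklr, which was not, is shown from RefSeq promoter windows. These windows hold 250 bases before a start and 50 after (assembly GRCm38.p6). Each stretch shown is trimmed at the first exon that GENCODE places in its window. All 8 genes matched, with 14 windows, and 5 windows of 4 genes held at least 1 of 6 motifs searched on both strands (the E-box CACGTG, the ChREBP-like pair CACGNG and CNCGTG set 5 bases apart, the SREBP-like TCACCCCAC, the D-box TTATGTAA, the ROR/REV-ERB core TAGGTCA and the hypoxia-response-like TACGTG). An E-box can be part of a ChREBP-like match. The share of all windows with at least 1 of the 6 motifs was not taken, so the count of 5 windows has no background here. Capitals mark the ChREBP-like match in the stretch before the downstream start of Pklr, which gives the liver form (chr3:89136373-89136571, plus strand). They also mark E-boxes in the stretch before the upstream RefSeq start of Ldha (chr7:46845554-46845803, plus strand). The stretch before Gckr (chr5:31297313-31297442, plus strand) is set beside them as that of the gene that rose, and none of the 6 motifs was found in its window.
Pklr: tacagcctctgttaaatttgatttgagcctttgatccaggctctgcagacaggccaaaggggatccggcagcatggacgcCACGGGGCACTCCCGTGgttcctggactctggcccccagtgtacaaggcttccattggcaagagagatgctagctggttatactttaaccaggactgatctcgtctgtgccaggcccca
Ldha: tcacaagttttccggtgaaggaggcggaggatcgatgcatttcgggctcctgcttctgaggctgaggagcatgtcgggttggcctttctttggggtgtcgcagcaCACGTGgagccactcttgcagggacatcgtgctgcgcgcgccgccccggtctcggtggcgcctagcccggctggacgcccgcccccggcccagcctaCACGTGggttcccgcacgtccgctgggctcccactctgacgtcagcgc
Gckr: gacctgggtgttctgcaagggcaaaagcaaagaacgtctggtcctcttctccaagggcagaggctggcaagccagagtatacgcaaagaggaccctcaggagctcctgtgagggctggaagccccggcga
The Pklr match lay 170 to 154 bases before the start, and 15 of 32851 RefSeq windows (0.0457%) held such a match. The 2 E-boxes of Ldha lay 145 to 140 and 48 to 43 bases before the upstream of its 2 RefSeq starts, and 7.15% of all windows held an E-box. The window of the downstream Ldha start held none of the 6 motifs. E-boxes were also found before Khk, where the letters fall in an annotated exon, and before the downstream start of Pfkfb3. The ROR/REV-ERB core, which 2.61% of all windows held, was found before the upstream start of Pklr. These matches are letters in a window and say nothing of binding in these livers, and gene-level values do not separate the transcripts of the 2 Pklr starts.

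The genes of factors that bind such motifs were measured too. Srebf1, which encodes the lipogenic factor SREBP-1, rose with a log2 fold change of 1.09 (SE 0.22, limma adjusted p = 0.00474), from 120.7 to 344.6 CPM in the saline livers to 413.1 to 479.0 CPM in the FSH livers. None of the 14 windows held TCACCCCAC, the only SREBP-like string searched, and whether SREBP-1 acts on these genes was not tested. Mlxipl, which encodes ChREBP, had a value of −0.30 (SE 0.20, adjusted p = 0.385). The E-box factor genes Usf1 (0.03, adjusted p = 0.879) and Usf2 (0.06, adjusted p = 0.676) and the hypoxia factor gene Hif1a (0.30, adjusted p = 0.216) did not pass the limma test.

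The livers that ranked high or low differed from gene to gene. FSH mouse 3 was the highest of its group for 4 of the 8 genes (Gckr, Gpi1, Khk and Pklr) and FSH mouse 2 the lowest for 4 (Gckr, Gpi1, Pfkl and Khk). Among the controls, saline mouse 5 was lowest for 4 genes (Pfkfb1, Pfkfb3, Khk and Ldha), and saline mouse 2 was highest for 3 (Pfkfb3, Khk and Pklr). Saline mouse 4, with the lowest Pklr, had the highest Gckr and Pfkl of its group. Gckr and Ldha varied least within groups, with coefficients of variation of 7.47% and 7.48% with FSH and 8.34% and 5.77% with saline.

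**Figure D2:**
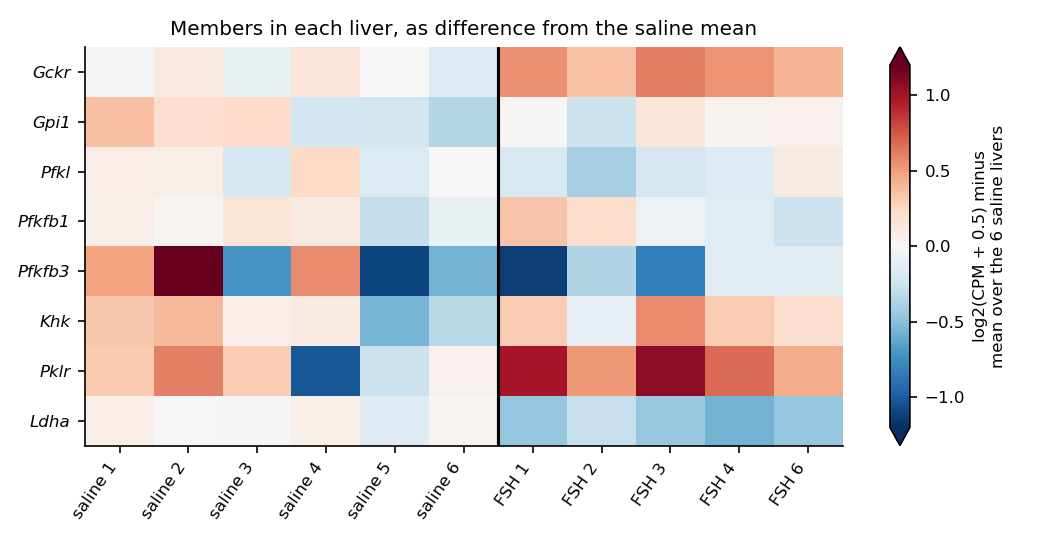
Difference of each gene (rows) in each liver (columns) from its mean over the 6 saline livers, on the log2(CPM + 0.5) scale, with red above and blue below that mean. Gckr is above it in all 5 FSH livers (0.35 to 0.61) and Ldha below it in all 5 (−0.56 to −0.27), while Pklr and Pfkfb3 spread most within the saline group.

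Averaged over the 11 livers, levels per kilobase of exon ran in the order Khk (477.9 CPM per kilobase), Ldha (280.8), Pklr (111.1), Gpi1 (39.4), Gckr (26.3), Pfkfb1 (8.16), Pfkl (7.95) and Pfkfb3 (0.815). Each neighboring pair stood in this order in 11 of 11 livers, except Pfkfb1 and Pfkl, which did so in 4 of 11 and do not differ beyond their spread. Over all livers, the ranges of Ldha and Pklr, of Gckr and Pfkfb1 and of Pfkl and Pfkfb3 did not overlap, and those of the other neighbors did. Lengths are those of all annotated exons together, so a gene with long unused exons reads low.

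The genes whose profile over the 11 livers was nearest to each of the 8 genes were taken by the root mean square (RMS) difference of log2 deviations. The profile holds the group difference, so a like fold change is built into this choice for every gene. For Gckr these were Tmem35b (0.09) and Tmem14c (0.10), against an RMS of 0.27 for Gckr itself. Tmem14c encodes a mitochondrial membrane protein of heme synthesis. For Ldha they were Slc17a3 (0.09), a urate and phosphate transporter gene, and the proteasome subunit gene Psmd11 (0.10). For Pklr they were Pgd (0.23), of the pentose phosphate pathway, and Gas2l3 (0.23). Khk was nearest to Slc37a4 (0.11), which encodes the transporter of glucose phosphate into the endoplasmic reticulum, and to Adgrg2 (0.15). Pfkfb3 was nearest to the amino acid transporter gene Slc38a2 (0.30) and the tyrosine aminotransferase gene Tat (0.34), at an RMS of 0.73 of its own. Gpi1 was near to Etv6 (0.10), Pfkl nearest to Stard10 (0.07) and Zfp954 (0.08), and Pfkfb1 to Atraid (0.10) and Igsf5 (0.11).

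Around the 8 genes, 91 further genes of sugar metabolism were read in 8 lists, of which 85 were tested. Of these, 18 rose and 4 fell at an adjusted p under 0.05 by limma. The share that rose was 21.2% of the 85, against 6.19% of all tested genes, and the share that fell was 4.71%, near the 4.41% of all tested genes. Both thresholds were passed by 4 genes (4.71%, against 1.83%), and 8 genes (9.41%, against 6.67%) had groups without overlap. Their median log2 fold change was 0.10. The lists were chosen with earlier results of these data known, so these shares are no independent evidence of a rise. The count of 18 depended on the livers included: it was 7 without FSH mouse 1, 11 without FSH mouse 2, 8 without FSH mouse 3, 9 without FSH mouse 4, 10 without saline mouse 4 and 10 without saline mouse 5, and the count of 4 was 2 without FSH mouse 1, 3 or 4. The background count of 1350 genes fell to 804 without FSH mouse 1.

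Of 23 other glycolysis genes tested, 2 rose and 0 fell, with a median of 0.03. They were the triose isomerase gene Tpi1 (0.27, adjusted p = 0.0423) and the brain-type aldolase gene Aldoc (0.57, adjusted p = 0.0489). At the exit to the mitochondrion and the blood, 4 of 17 rose and 1 fell. The pyruvate dehydrogenase subunit genes Pdhb (0.35, adjusted p = 0.0361) and Dlat (0.73, adjusted p = 0.00534) rose, as did Pdk1 (0.74, adjusted p = 0.00314) and Pdk2 (0.29, adjusted p = 0.044), whose kinases switch that complex off. Slc16a1, which encodes the lactate and pyruvate carrier MCT1, fell in the same direction as Ldha, from 78.4 ± 9.23 CPM (SD, n = 6) to 44.4 ± 9.0 CPM (SD, n = 5), with a log2 fold change of −0.83 (SE 0.13, limma adjusted p = 0.000944) and groups that did not overlap.

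Of 7 fructose and polyol genes, 2 rose. The fructose transporter gene Slc2a5 rose by 1.68 on the log2 scale (SE 0.30, limma adjusted p = 0.00264) from a low level of 0.370 to 1.45 CPM to 1.93 to 6.49 CPM, and the glucose transporter gene Slc2a2 by 0.51 (SE 0.12, adjusted p = 0.0151). Of 8 pentose phosphate genes, 4 rose and 1 fell. G6pdx, the entry enzyme, rose by 1.10 (SE 0.30, adjusted p = 0.0282), with FSH livers spread from 6.22 to 27.1 CPM. Pgd (0.74, adjusted p = 0.0171), Rpia (0.79, adjusted p = 0.0167) and Tkt (0.42, adjusted p = 0.0247) rose, and H6pd, the form of the endoplasmic reticulum, fell (−0.55, adjusted p = 0.0236). Of the glycerol phosphate shuttle, which regenerates the NAD that glycolysis needs, the cytosolic enzyme gene Gpd1 fell by 1.14 on the log2 scale (SE 0.13, limma adjusted p = 6.06e-05), from 339.3 ± 46.0 CPM (SD, n = 6) to 154.6 ± 30.1 CPM (SD, n = 5). The mitochondrial Gpd2 (0.59, adjusted p = 0.0319) and the Gpd1-like gene Gpd1l (0.34, adjusted p = 0.0473) rose.

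Of 7 opposing gluconeogenic genes, 1 rose, the fructose bisphosphatase gene Fbp1 (0.42, adjusted p = 0.0416). Pck1, of the committed step, had a value of −0.87 (SE 0.34) and did not pass (adjusted p = 0.123). Of 14 transcription factor genes, Srebf1 and Onecut1 (0.87, adjusted p = 0.0376) rose and Hnf4a fell (−0.44, adjusted p = 0.0369). Of 6 sugar-responsive genes, Arrdc4 rose (0.58, adjusted p = 0.00442), and its relative Txnip had a value of −0.07 (adjusted p = 0.812).

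**Figure D3:**
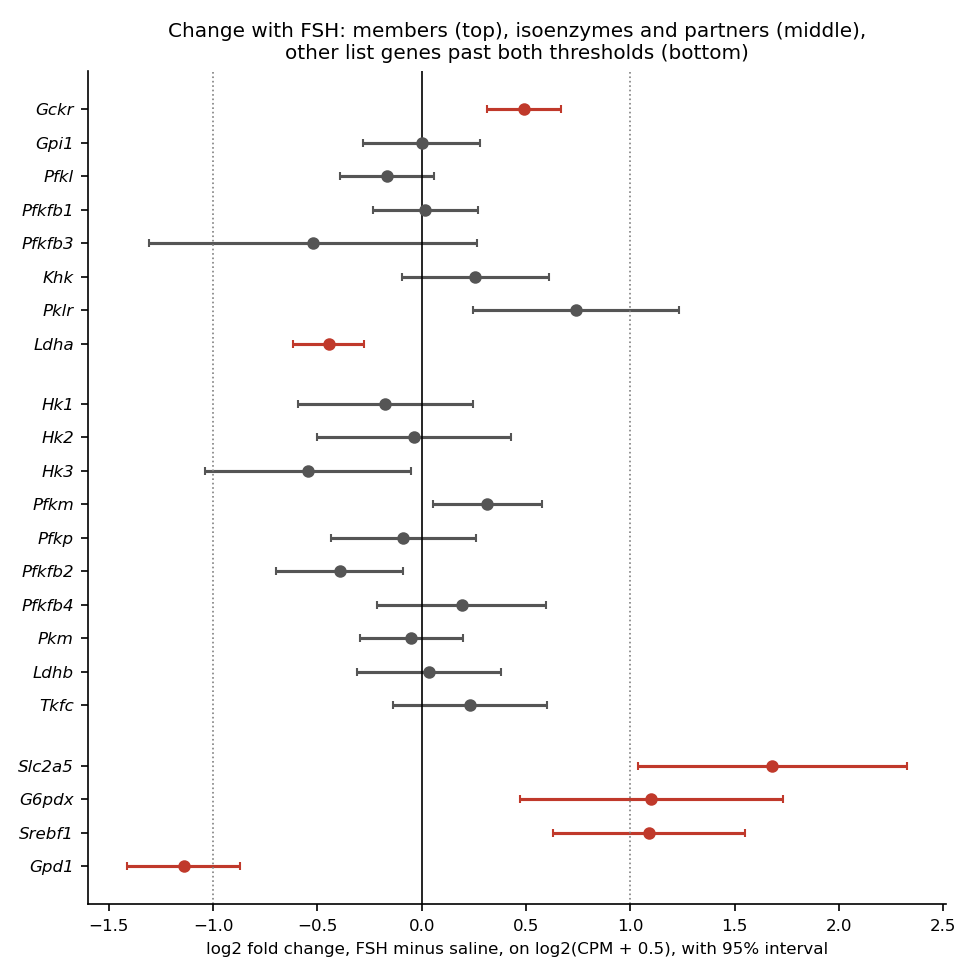
Log2 fold change of FSH minus saline on the log2(CPM + 0.5) scale (horizontal), with its 95% interval from limma, for the 8 genes (top), their isoenzymes and partners (middle) and the other list genes past both thresholds (bottom). Red marks an adjusted p under 0.05 and dotted lines mark −1 and 1; of the 8 genes, Gckr (0.49) and Ldha (−0.45) are red, and of the isoenzymes and partners none is.

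On GRCm38, as GENCODE places them, Gckr spans chromosome 5 from 31297443 to 31327314 and Khk chromosome 5 from 30921431 to 30931248. Gpi1 spans chromosome 7 from 34201330 to 34230336 and Ldha chromosome 7 from 46841475 to 46855627. Pklr lies on chromosome 3 from 89136142 to 89146784, Pfkfb3 on chromosome 2 from 11471433 to 11554077, Pfkl on chromosome 10 from 77986947 to 78010083 and Pfkfb1 on chromosome X from 150588229 to 150643878. Pklr overlaps Hcn3, Gpi1 overlaps Gm26762 and Pfkfb1 overlaps Apex2 on the other strand, and Pfkfb3 overlaps Gm37975 on its own strand and Gm10851 on the other. Whether counting used strand is not given in the sources used here, so reads of these pairs may be mixed. Gckr and Ldha overlap no annotated gene.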

How the data were processed

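Liver RNA of 11 mice (5 FSH, 6 saline) was sequenced, 1 library per mouse. Per the labels and file header, the authors deposited 1 table of CPM for 36788 Ensembl genes. The submitters' processing notes name FastQC 0.11.2, Trim Galore 0.3.3, cutadapt, STAR, RSEM and mm10; the annotation and strand setting are not given in the sources used here. The CPM steps gave whole reads for 100% of values (tolerance 0.1 read), which supplied depths and the count alternatives. Names came from GENCODE M21 (35555 IDs matched).

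Levels were analyzed as log2(CPM + 0.5) in limma 3.58.1 (R 4.3.3, intensity trend, no covariate) over the 12733 genes that averaged 0.5 CPM or more, with Benjamini-Hochberg adjustment and thresholds of 0.05 and an absolute log2 fold change of 1. The exact test over 462 splits was two-sided. Code was tested on simulated data. p-values measure the spread between these mice. Precision of low genes is limited by depth: 1 read is worth more CPM in the shallower libraries.

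The 8 genes and all lists were chosen with earlier results of these data known. Named genes were the 8, their isoenzymes and partners, list genes past both thresholds and the 2 genes nearest to each of the 8; some genes that this rule names are not reported here. Other list genes were named because they were called. Mlxipl, Usf1, Usf2, Hif1a, Pck1, Txnip, Glul, Oat, Cyp2e1 and Axin2 were named after their values were seen. Alternatives covered pseudocount, filter, scaling, trend, array weights, a replicate block, voom, edgeR 4.0.16 and DESeq2 1.42.0 on recovered reads, thinning and leaving out each mouse.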

Additional observations from a re-analysis of the deposited data

Results flagged for a closer look

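Each of the 80 groups of values behind 40 named genes was checked for a liver whose gap to the nearest other exceeded Dixon's 95% critical value, which chance exceeds in about 1 of 20 groups, and 3 groups had such a liver. None of the 16 groups of the 8 genes did. FSH mouse 4 was high for Pkm, at 27.2 CPM against 18.5 to 19.5 CPM in the other FSH livers, and for Ldhb, at 3.62 CPM against 2.15 to 2.26 CPM. FSH mouse 6 was high for Hnf4a, at 445.2 CPM against 312.6 to 347.3 CPM. The cause was not tested.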

How the results depend on the processing

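The calls of Gckr (log2 fold change 0.46 to 0.53, adjusted p at most 0.00896) and Ldha (−0.49 to −0.42, adjusted p at most 0.0117) were kept under each of 24 alternatives, 2 or 3 of the 8 genes were called, and 0 passed both thresholds. Pklr was the third, under the 4 settings named in the report, and its adjusted p ran from 0.0228 to 0.135. The sign of 2 genes near 0 turned. Gpi1 was −0.017 with upper-quartile scaling, −0.028 with TMM, −0.016 with array weights, −0.029 with voom, −0.043 with edgeR, −0.042 with DESeq2, −0.0033 with thinned reads and −0.070 to 0.072 on leaving out 1 mouse. Pfkfb1 was −0.010 with TMM, −0.0072 with voom, −0.0028 with thinned reads and −0.065 to 0.086 on leaving out 1 mouse.

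The count of 18 sugar metabolism genes that rose became 9 with no filter on low values and 11 with no intensity trend, and was 7 to 18 on leaving out 1 mouse. The count of 4 that fell was 2 to 5 on leaving out 1 mouse. The count over all genes, 1350, was 804 to 1659 on leaving out 1 mouse and 1013 to 1892 otherwise. The cause was not tested.

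Mouse numbers are shared by the groups, but no label says that same-numbered mice belong together, so the numbers were not taken as pairs. The 5 same-numbered pairs correlated at −0.07 to 0.36, and pairs of unlike number at −0.23 to 0.24. Of the FSH mice, 1 correlated best with its own number. These values do not decide whether same-numbered mice share a batch. With the replicate block on 10 libraries, 1214 genes were called, 12 sugar metabolism genes rose and 7 fell, Gpi1 was −0.044 and Pfkfb1 −0.039. Without the block on the same 10 libraries, a comparison chosen after seeing the data that is the fit without saline mouse 5, 1237 genes were called, 10 rose and 5 fell, Gpi1 was −0.044 and Pfkfb1 −0.039. The block changed no call among the 8 genes. Depth limits Pfkfb3 most, with 29 to 229 reads per library.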

Other observations

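Glycolysis is a pericentral function of the liver lobule, so genes that mark the lobule's zones were read beside it. Of 9 pericentral markers tested, 0 passed the test by limma at an adjusted p under 0.05. Their median log2 fold change was 0.20, beside 0.02 over all tested genes. Glul (0.30, limma adjusted p = 0.0513) and Oat (0.49, adjusted p = 0.0753) were above 0 without a call, and Cyp2e1 (−0.20) and Axin2 (−0.13) were among those below 0. Of 10 periportal markers, 3 rose and 1 fell, with a median of −0.01, where 6.19% of all tested genes were called higher and 4.41% lower. Gls2, the liver glutaminase gene, rose from 246.7 ± 53.6 CPM (SD, n = 6) to 405.7 ± 13.6 CPM (SD, n = 5), with a log2 fold change of 0.74 (SE 0.12, adjusted p = 0.00123). The urea cycle gene Ass1 rose by 0.59 (SE 0.13, adjusted p = 0.0112) and the aldehyde dehydrogenase gene Aldh1b1 by 0.42 (SE 0.11, adjusted p = 0.025). Cyp2f2, a cytochrome gene used as a periportal marker, fell from 657.9 ± 30.9 CPM to 344.0 ± 46.1 CPM (log2 fold change −0.94, SE 0.09, adjusted p = 2.27e-05), with groups that did not overlap. The periportal list therefore held members that moved in opposite directions. These lists were chosen with earlier results of the data known.

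Among other cell types, the lymphatic and sinusoidal endothelial marker Lyve1 fell (−0.63, adjusted p = 0.0121) and the bile duct keratin gene Krt7 rose (0.69, adjusted p = 0.00731) from a low level of 0.809 to 1.31 CPM. Each was 1 of 5 markers of its list to pass, and the endothelial list had a median of −0.04, with −0.32 for Stab2 (adjusted p = 0.133), −0.04 for Clec4g, 0.03 for Kdr and 0.05 for Fcgr2b.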
